A study of Mus musculus with 7 samples.

Results

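The proteasome is the protease that breaks down most cytosolic and nuclear proteins after they have been tagged with ubiquitin. Its barrel-shaped core particle is a stack of rings of alpha subunits (Psma genes), which gate the entry, and beta subunits (Psmb genes), of which Psmb5, Psmb6 and Psmb7 carry the cutting sites. A regulatory particle caps the core: its ring of ATPases (Psmc genes) unfolds the substrate, and its other subunits (most Psmd genes) bind, hold and strip the ubiquitin chain. Most of these genes are expressed in all cells, with a few tissue-restricted forms such as Psma8 and Psmb11, while Psmb8, Psmb9 and Psmb10 replace the cutting subunits in immune cells and were not counted as members here. A total of 36 of the 50435 gene rows in the deposited table carried the name of a Psma, Psmb, Psmc or Psmd gene other than these 3 and without a hyphen, 16 for the core (8 Psma, 8 Psmb) and 20 for the regulatory particle (6 Psmc, 14 Psmd).

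RNA came from mouse bone marrow sorted as sinusoidal endothelium, that is, cells positive for CD31 and negative for Sca1, CD45, Ter119, Gr1 and CD11b. All mice were wild-type recipients that had been irradiated and transplanted with Zbtb46dtr marrow, in which the diphtheria toxin receptor follows Zbtb46, a gene of classical dendritic cells. At 8 weeks they received 200 ng of diphtheria toxin (DT, 3 samples) to ablate those donor cells, or PBS alone (4 samples), and marrow was taken 1 day later, so the comparison asks how the sorted cells' RNA differs after the toxin. The sources used here give no age, sex or number of mice per sample; the labels call the samples biological replicates, and p-values measure the spread between these samples. Values are RPM, reads per 1e6 reads of a library, with about 33200000 to 51200000 reads per library, so that 3 reads equal 0.0585 to 0.0904 RPM, a limit that covers counting error only.

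The markers of other cell types differed between the groups, and those of endothelium, the labelled cell type, were low in both. The 12 neutrophil genes (Ngp and S100a8 the most abundant), all higher in DT, summed to 1638 to 3110 RPM in PBS and 55023 to 58890 RPM in DT, and the 8 monocyte and macrophage genes (led by Lyz2), all higher, to 377 to 749 and 6635 to 8216 RPM. Of 10 erythroid genes (led by Car2 and Car1) 8 were lower and 2 higher in DT, with sums of 943, 10674, 6985 and 6551 RPM in PBS 1 to 4 and 1178 to 1559 RPM in DT. Of 8 B-lineage genes (led by Cd79a) 7 were lower, with sums of 4166 to 6607 and 2801 to 3119 RPM. All 6 T and natural killer genes were higher, with sums of 24.8 to 53.2 and 337 to 359 RPM. Of the plasma cell genes Jchain was higher and Mzb1 lower, with list sums of 209 to 357 and 385 to 494 RPM. The 8 genes of cycling cells, of which Pcna was lower, summed to 1980 to 3855 and 1958 to 2169 RPM. The 12 genes listed as markers of endothelium summed to 1.45 to 9.35 RPM in PBS and 10.2 to 18.7 RPM in DT. A mean of at least 1 RPM was reached by 3 of them, and of these Flt1 was higher. Cdh5, the endothelial cadherin, was at 2.68, 0.511, 0.0001 and 0.0518 RPM in PBS 1 to 4, where 0.0001 is the offset the table adds to 0, and at 3.39, 1.81 and 1.09 RPM in DT. The part these shifts play in the subunit values was not tested, and in such bulk samples fewer cells of a type and less RNA per cell cannot be told apart.

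Of the 36 genes, 35 had a mean of at least 1 RPM and were tested. Psmb11, a beta subunit of the thymic cortex, was left out, at 0.0001 to 0.0528 RPM in PBS and 0.0001 to 0.0496 RPM in DT, at or below the level of 3 reads in every library. Psma8, an alpha subunit of the testis, was at 0.0603, 13.9, 5.11 and 3.49 RPM in PBS 1 to 4 and at 0.643, 4.47 and 0.683 RPM in DT 1 to 3. The other 34 had group means between 29.1 and 352 RPM. The plot of single libraries has a log axis that reaches down to Psma8, which draws the groups of the other genes close together.

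**Figure D1:**
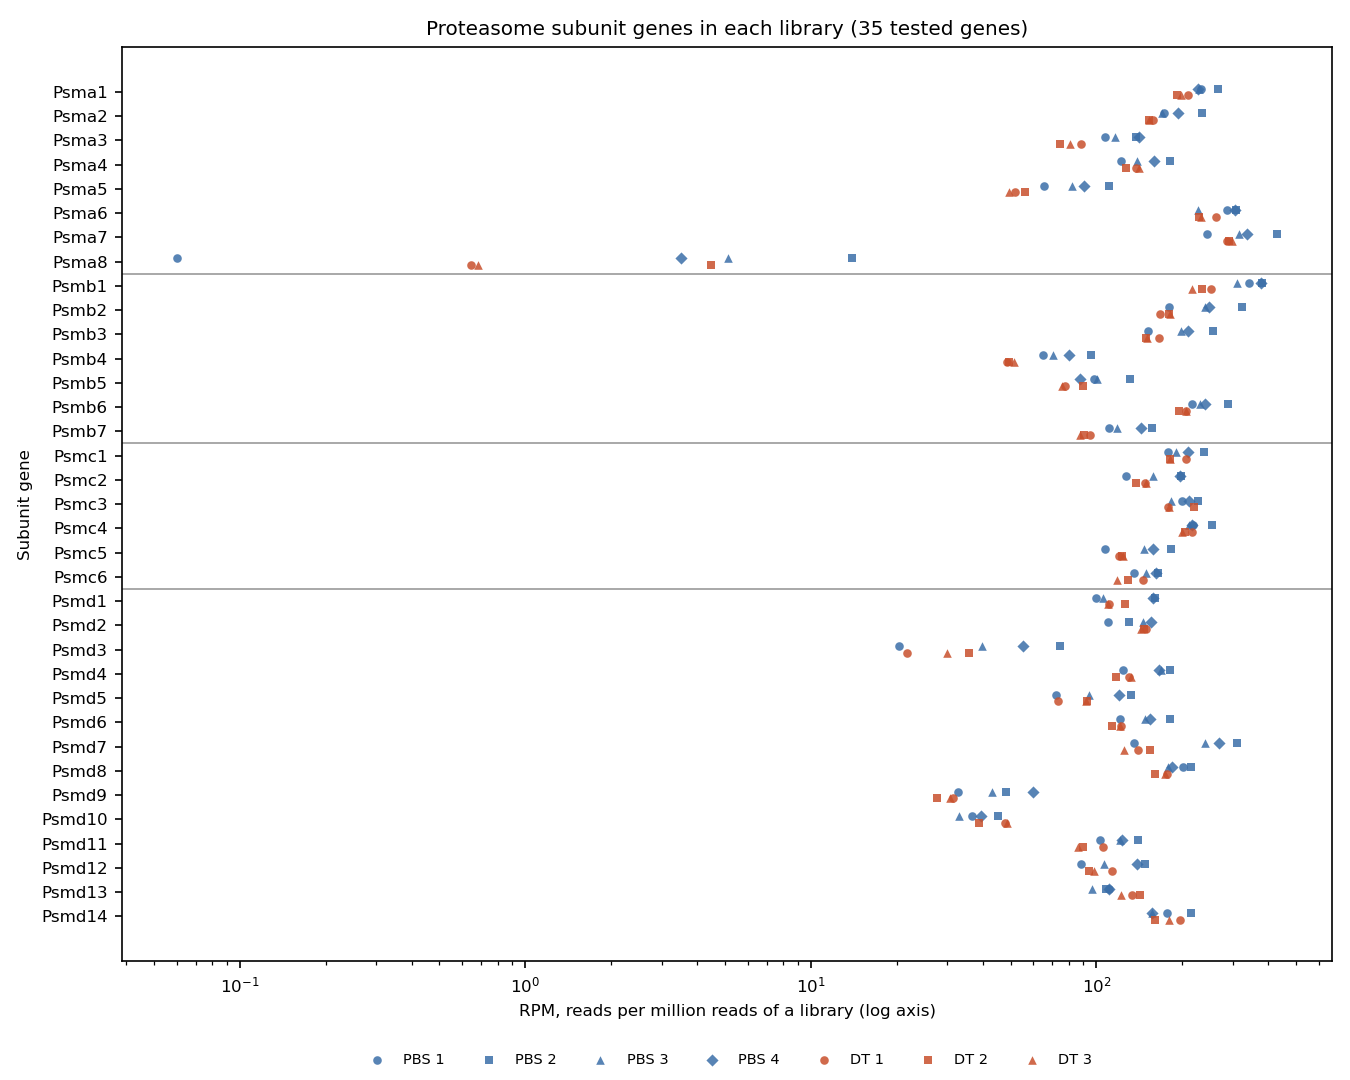
Level of each of the 35 tested subunit genes in each library, in RPM on a log axis, with PBS libraries in blue and DT libraries in red and one symbol shape per replicate number; grey lines part the Psma, Psmb, Psmc and Psmd genes. Most genes sit near 100 RPM with the DT points at the low side of the PBS points, and Psma8 lies far below the rest.

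Promoter sequence was read from RefSeq (GRCm38.p6), where 29 of the 36 genes had a window of 250 bases before the start site. Fixed words were searched on both strands. The word CCGGAAG, a core of sites for ETS family factors, stood in 8 of 17 regulatory genes and 1 of 12 core genes, against 6.91% of all 32851 windows. GGGCGG, the GC box, stood in 17 of the 29 genes (32.7% of all windows), CCAAT in 12 (33.8%) and TGACNNNGC, the core of the antioxidant response element bound by the factor Nfe2l1, in 5 (10.2%). The full cAMP response element TGACGTCA stood in 0 of 29 (1.55% of all windows). A gene with more than 1 start site was counted once if any of its windows held the word. The share of all windows counts each window singly, so these measures differ. Words of different kinds overlapped only in Psmd9. These words are matches of letters, not sites of binding. The difference between core and regulatory genes in CCGGAAG was seen in the search itself and was not tested, and the factors' binding was not measured.

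Stretches outside annotated exons nearest the start site follow, 80 bases each, 5′ to 3′, with matches to the words in capitals. Psmd11, Psmd2 and Psmc6 show the ETS word, as CCGGAAG or its reverse complement CTTCCGG, beside a GC box in regulatory genes, Psmb5 and Psmb6 show the response element core in genes of cutting subunits, and Psma3, Psma5 and Psmb4 are core genes that were lower in DT. They lie at chr11:80428535-80428614 (+ strand), chr16:20651572-20651651 (+ strand), chr14:45329708-45329787 (+ strand), chr14:54618023-54618102 (- strand), chr11:70525277-70525356 (+ strand), chr12:70974541-70974620 (+ strand), chr3:108256798-108256877 (+ strand) and chr3:94886962-94887041 (- strand). 
Psmd11: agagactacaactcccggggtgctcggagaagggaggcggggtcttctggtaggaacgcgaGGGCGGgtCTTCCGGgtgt
Psmd2: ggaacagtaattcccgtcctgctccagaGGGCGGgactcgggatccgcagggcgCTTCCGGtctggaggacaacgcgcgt
Psmc6: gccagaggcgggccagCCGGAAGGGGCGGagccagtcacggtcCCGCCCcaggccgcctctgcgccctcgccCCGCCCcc
Psmb5: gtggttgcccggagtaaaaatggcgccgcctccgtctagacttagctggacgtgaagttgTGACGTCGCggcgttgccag
Psmb6: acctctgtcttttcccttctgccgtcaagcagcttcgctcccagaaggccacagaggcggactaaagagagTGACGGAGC
Psma3: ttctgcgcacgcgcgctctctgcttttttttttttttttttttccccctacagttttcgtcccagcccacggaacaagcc
Psma5: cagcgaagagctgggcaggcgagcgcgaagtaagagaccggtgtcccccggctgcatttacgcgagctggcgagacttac
Psmb4: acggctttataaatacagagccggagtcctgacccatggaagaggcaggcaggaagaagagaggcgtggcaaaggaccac
The stretches of Psma3, Psma5 and Psmb4 hold none of the 5 words, while the whole window of Psma3 holds CCAAT further upstream, at 139 bases before the start. Psmb1 and Psmb7, which were also lower core genes, had no window and could not be searched.

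The comparison of DT with PBS gave 5 subunit genes that were lower and 0 that were higher (limma, Benjamini-Hochberg adjusted p under 0.05 over 14100 genes). The log2 difference was below 0 for 31 of the 35, beside 63.3% of all tested genes. Among all tested genes 18.6% were lower and 13.4% were higher, and in the 3942 genes within the same range of levels 28% were lower, so the share of subunit genes called was not above the background. The median log2 difference of the 35 genes was -0.25, beside -0.23 for all tested genes. Every value on this scale is a difference in log2(RPM + 1), DT minus PBS. The 5 genes, Psma3, Psma5, Psmb1, Psmb4 and Psmb7, all belong to the core particle. Among the 20 regulatory genes 0 passed, 3 were lower and 1 was higher at an unadjusted p under 0.05, and voom on estimated reads also called 0. Whether core and regulatory genes differ in this was not tested. These classes follow gene names, and the 20 include 3 assembly chaperones, Psmd5, Psmd9 and Psmd10. Adrm1, a ubiquitin receptor of the regulatory particle whose name lies outside the rule, was lower in DT (limma, adjusted p = 0.0431). Under median-ratio or TMM scaling, which bring the median of all genes to -0.01 and 0.01, the 5 kept their sign but 0 passed, and 0 passed without DT 3. The plot of differences shows both particles beside the median of all genes.

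**Figure D2:**
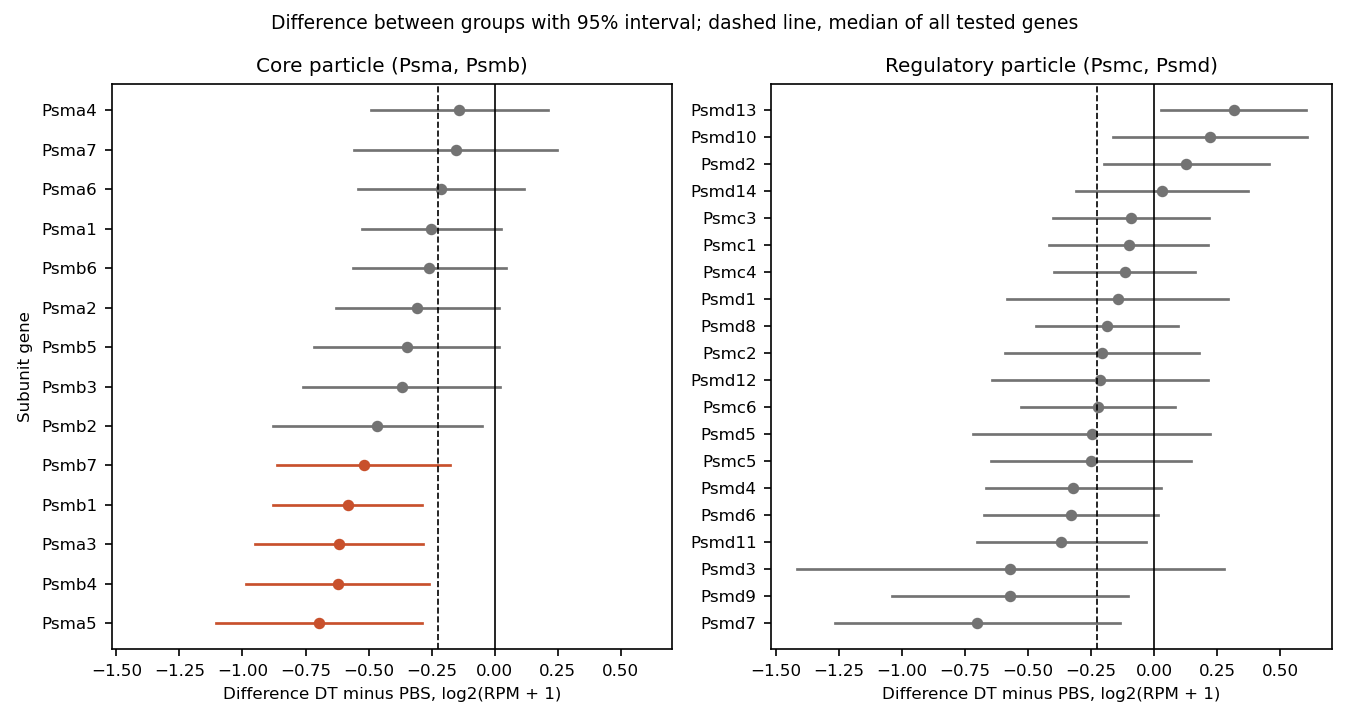
Difference between groups for each core gene (left, Psma8 left out because of its wide interval) and each regulatory gene (right), in log2(RPM + 1), DT minus PBS, with 95% intervals; red marks genes past the threshold, the dashed line the median of all tested genes at -0.23. The 5 red genes lie between -0.70 and -0.52, all in the core panel.

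Of the 8 alpha ring genes Psma3 and Psma5 fell, beside 18.6% of all tested genes and 28% of those in the same range of levels. Psma3 (chromosome 12, 70974621 to 70996347 in mm10), whose protein is a subunit of the alpha ring, was at 107, 138, 117 and 141 RPM in PBS 1 to 4 and at 88.4, 74.6 and 80.7 RPM in DT 1 to 3. The groups did not overlap, and the log2 difference was -0.62 ± 0.15 (SE; limma, adjusted p = 0.0119). Psma5 (chromosome 3, 108256926 to 108279974) was at 65.5, 111, 82.3 and 90.1 RPM in PBS and at 51.9, 56.1 and 49.6 RPM in DT, again without overlap (-0.70 ± 0.18, adjusted p = 0.0173). It shares 60 exon bases with another gene, 1700010K24Rik. Psma4 (chromosome 9, 54950790 to 54958030), another ring member, was at 122, 181, 139 and 159 RPM in PBS and within that span in DT, at 137, 127 and 141 RPM. Its difference was -0.14 with a 95% interval of -0.49 to 0.21. Psma7 (chromosome 2, 180036374 to 180042433), the ring member with the highest level, was at 244, 429, 315 and 336 RPM in PBS and at 285, 290.1 and 299 RPM in DT. The DT values of Psma7 all lay inside the PBS range. Psma1, Psma2 and Psma6 had differences of -0.25, -0.31 and -0.21, and none passed. For Psma8 the difference of -0.88 had an interval of -2.65 to 0.89; PBS 2 held its highest value. The adjusted p of Psma8 was 0.0496 without PBS 1.

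The 7 tested beta ring genes had a median log2 difference of -0.46, beside -0.23 for all tested genes and -0.25 for those in the same range of levels. Of the 7, 3 fell, beside 18.6% of all tested genes and 28% of those in that range. Psmb1 (chromosome 17, 15475021 to 15499751), a beta subunit without a cutting site, was at 342, 379, 309 and 377 RPM in PBS and at 253, 234 and 215 RPM in DT. All 3 DT values were under the lowest PBS value, and the difference was -0.58 ± 0.13 (adjusted p = 0.00905). Psmb4 (chromosome 3, 94884093 to 94886961), likewise without a cutting site, was at 64.9, 95.5, 70.7 and 80.2 RPM in PBS and at 48.4, 49.2 and 51.3 RPM in DT (-0.62 ± 0.16, adjusted p = 0.0168). Its DT libraries spanned a far narrower range than its PBS libraries. Psmb7 (chromosome 2, 38588036 to 38644087), which cuts after basic residues, was at 111, 156, 118 and 143 RPM in PBS and at 94.6, 90.6 and 87.3 RPM in DT (-0.52 ± 0.15, adjusted p = 0.0283). Psmb7 was the least steady of the 5 genes: it passed in 11 of 20 other settings, against 14 to 16 for the rest, and it shares 405 exon bases with Nek6. Psmb5 (chromosome 14, 54614119 to 54618022), which cuts after hydrophobic residues and is the main target of proteasome inhibitor drugs, was at 98.3, 131, 100.1 and 87.8 RPM in PBS and at 77.4, 89.7 and 75.9 RPM in DT. The groups overlapped, and the difference of -0.35 did not pass (adjusted p = 0.129). Psmb6 (chromosome 11, 70525367 to 70527858), which cuts after acidic residues, was at 216, 289, 229.7 and 239 RPM in PBS and at 206, 195 and 205 RPM in DT. These did not overlap, yet the difference of -0.26 did not pass (adjusted p = 0.170). A processed pseudogene, Psmb6-ps2, was listed at 15.4 to 23.1 RPM over all libraries, so reads of Psmb6 may be split with it. Psmb2 and Psmb3, beta subunits without a cutting site, had differences of -0.46 and -0.37 and did not pass.

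Differences of the 6 ATPase genes spanned the narrowest range of the 4 subunit classes. They ran from -0.25 to -0.09 with a median of -0.16. Groups without overlap were seen in 0 of 6, beside 24.7% (DT lower) and 16.1% (DT higher) of all tested genes. Psmc3 (chromosome 2, 91054009 to 91066369), one of the ATPases, was at 199.8, 227, 182 and 210.4 RPM in PBS and at 178, 219 and 180.1 RPM in DT. That is a difference of -0.09 with an interval of -0.40 to 0.22. Psmc4 (chromosome 7, 28041707 to 28050101), the ATPase with the highest level, was at 218, 254, 211 and 216 RPM in PBS and at 215, 205 and 200.0 RPM in DT (-0.12, interval -0.40 to 0.16). Psmc5 (chromosome 11, 106256154 to 106263120) was at 107, 182, 147 and 158 RPM in PBS, where PBS 1 stood lowest, and at 119.6, 123 and 124 RPM in DT. Its difference was -0.25 (interval -0.65 to 0.14). Psmc6 (chromosome 14, 45329788 to 45349705) was at 136, 164, 149 and 162 RPM in PBS and at 146, 129 and 118 RPM in DT (-0.22, interval -0.53 to 0.08). The intervals do not exclude a difference as large as that of all genes, and under TMM scaling the 4 named here had differences of 0.02 to 0.18.

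The 14 Psmd genes spread the widest, from -0.70 to 0.31. Psmd13 (chromosome 7, 140881968 to 140898643), a lid subunit, was the only member with every DT value above every PBS value. It was at 110.3, 108, 96.2 and 111 RPM in PBS and at 133, 142 and 122 RPM in DT, a difference of 0.31 ± 0.13 (adjusted p = 0.0881). It passed under median-ratio (0.0109), TMM (0.00828) and quantile scaling (0.0420) and with sample weights (0.0468), and shares 342 exon bases with Sirt3. Psmd14, the enzyme that removes the ubiquitin chain, was at 176, 214, 157 and 157 RPM in PBS and at 196, 160.3 and 179.6 RPM in DT, a difference of 0.03. Psmd7 (chromosome 8, 107580381 to 107588464), the partner of Psmd14 in the lid, was at 135, 310.1, 239 and 268 RPM in PBS and at 140.3, 154 and 125 RPM in DT. PBS 1 lay among the DT values while the other PBS libraries were far above them, and the difference of -0.70 ± 0.25 missed the threshold (adjusted p = 0.0585; 0.000735 without PBS 1). Psmd3, also of the lid, was at 20.4, 74.4, 39.7 and 55.3 RPM in PBS against 21.7, 35.6 and 30.0 RPM in DT. PBS 1 lay below all DT values and the other PBS libraries above them, and the difference was -0.57 (interval -1.42 to 0.28). Psmd9 (chromosome 5, 123169413 to 123250131), a chaperone that helps build the regulatory particle, was at 32.6, 48.2, 43.0 and 60.0 RPM in PBS and at 31.5, 27.7 and 30.6 RPM in DT. It did not overlap but missed the threshold (-0.57, adjusted p = 0.0615), and it shares 1849 exon bases with Gm26745. Psmd10, another such chaperone, had a difference of 0.22 and Psmd5, the third, of -0.25. Psmd1 and Psmd2, the large scaffold proteins, had -0.15 and 0.13, and Psmd4, a ubiquitin receptor, -0.32. The lid genes Psmd6, Psmd8, Psmd11 and Psmd12 had -0.33, -0.19, -0.37 and -0.22, and every DT value of Psmd8 lay below its PBS values. None of these passed. The difference was below 0 for 10 of the 14 Psmd genes, beside 63.3% of all tested genes.

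Set against the other genes, 10 of the 35 tested members had every DT value below every PBS value, a state that 24.7% of all tested genes shared, and 1 had the reverse, as did 16.1% of all. Of these 10, 8 were core genes (of 15) and 2 were regulatory genes (of 20).

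Within each library the core genes took a smaller part of the subunit RNA in DT. The summed level of the 16 core genes over that of the 20 regulatory genes was 0.998, 0.990, 0.940 and 0.933 in PBS 1 to 4 and 0.860, 0.848 and 0.867 in DT 1 to 3. No DT library reached a PBS library. A ratio taken within a library does not move with its scaling, so this holds for the deposited values and for any common factor. The core genes summed to 2772 ± 404 RPM over the PBS libraries against 2145 ± 51.1 RPM over the DT libraries, and the regulatory genes to 2873 ± 410 RPM against 2499 ± 59.9 RPM (mean ± SD, n = 4 and 3). Core and regulatory medians of the log2 difference were -0.37 and -0.21. This is a description of chosen genes and carries no test.

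**Figure D3:**
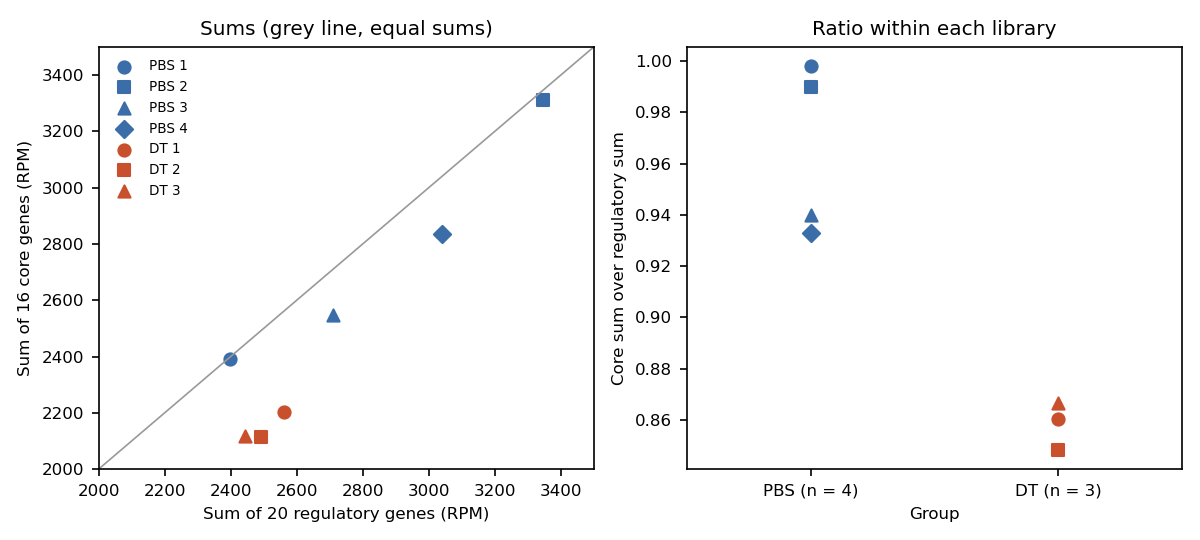
Left, sum of the 16 core genes against the sum of the 20 regulatory genes in RPM for each library, with the line of equal sums in grey; right, the ratio of both sums by group, on an axis that does not start at 0. The 3 DT libraries lie between 0.848 and 0.867 and the 4 PBS libraries between 0.933 and 0.998.

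Most subunit genes had the same highest and lowest PBS library. Summed over all 36 genes, the level was 4788, 6658, 5257 and 5875 RPM in PBS 1 to 4 and 4767, 4605 and 4562 RPM in DT 1 to 3, or 0.456% to 0.666% of reads. PBS 1 lay close to the DT libraries and PBS 2 far above them. PBS 2 held the highest PBS value in 31 of 35 members and PBS 1 the lowest in 24, whereas among all tested genes PBS 2 was highest in 35.4% and PBS 1 lowest in 36.9%. The erythroid sum had the same lowest and highest PBS library, at 943 RPM in PBS 1 and 10674 RPM in PBS 2, but not the same order between PBS 3 and PBS 4. The neutrophil, monocyte, B-lineage, plasma cell and T and natural killer sums ran the other way, highest in PBS 1 and lowest in PBS 2 among the PBS libraries, at 3110 and 1638 RPM for neutrophil genes and 6607 and 4166 RPM for B-lineage genes. Psmd7, Psmd3 and Psma8 were the tested members with the widest relative spread in PBS, with coefficients of variation of 31.4%, 48.4% and 104%, beside a median of 16.2% over the 35. Without PBS 1, 15 of 35 members were lower in DT, 8 of the core and 7 regulatory, beside 25.7% of all genes tested in that fit. The part of RNA from these cell types in the subunit values was not tested. In DT the median coefficient of variation was 6.69%. Genes in the same range of levels had medians of 18.8% in PBS and 9.48% in DT, so the lower spread in DT was general.

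**Figure D4:**
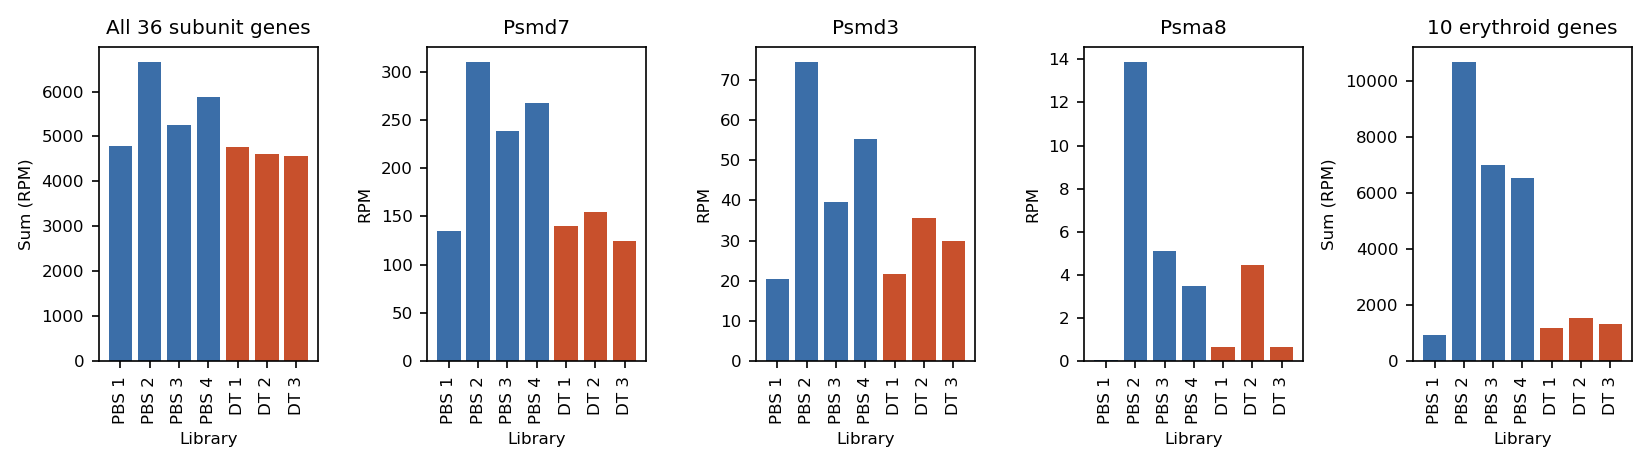
Bars give, for each library, the summed RPM of the 36 subunit genes, the RPM of Psmd7, Psmd3 and Psma8, and the summed RPM of 10 erythroid genes, with PBS in blue and DT in red. PBS 2 is highest and PBS 1 the lowest PBS library in all 5 panels.

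Levels were compared between genes as RPM per kilobase of the principal transcript (GENCODE vM21), the longest one where several ranked equally. In the assembled particle each ring position is filled by its own subunit in equal number. The 14 core genes other than Psma8 and Psmb11 nevertheless spanned 8.20-fold in PBS, from 44.1 for Psma3 to 362 for Psma7, with Psmb6 at 305 and Psmb2 at 289. The 3 cutting subunits stood at 305 for Psmb6, 116 for Psmb5 and 114 for Psmb7. The 20 regulatory genes spanned 8.82-fold, from 17.7 for Psmd9, a chaperone, to 156 for Psmc4. These spans depend on the transcript chosen: per kilobase of all annotated exons they were 7.07-fold and 16.8-fold, with Psma6 and Psmc5 highest. Psma3 was the lowest core gene by either length, with 2846 bases (3894 over all exons) against 914 for the principal transcript of Psma7. Before division by length, its PBS mean of 126 RPM was above those of Psma5 (87.1 RPM) and Psmb4 (77.8 RPM). The median per kilobase was 163 for core and 81.7 for regulatory genes in PBS, and 124 and 73.8 in DT.

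None of the 3 immune counterparts of the cutting subunits passed the test. Psmb8, which replaces Psmb5, was at 233, 153, 147 and 180.3 RPM in PBS and at 191, 229 and 246 RPM in DT, and its difference of 0.33 did not pass (adjusted p = 0.186; 0.0259 without PBS 1 and 0.0491 with TMM scaling). Psmb9 and Psmb10 had differences of 0.08 and 0.07. As ratios of RPM within a library, Psmb8 over Psmb5 was 2.37, 1.16, 1.47 and 2.05 in PBS and 2.47, 2.55 and 3.24 in DT. Psmb10 over Psmb7 was 0.991, 0.617, 0.812 and 0.672 in PBS and 1.07, 1.27 and 1.11 in DT. In both pairs each DT library lay above each PBS library. Psmb9 over Psmb6 was 0.588, 0.306, 0.330 and 0.380 in PBS and 0.487, 0.502 and 0.485 in DT, where PBS 1 was above DT. In two-sided exact permutation tests of the mean log2 ratio over 35 splits, chosen after the values were seen, p was 0.0571 for the first pair (difference 0.69), 0.0571 for the second (0.59) and 0.229 for the third (0.34). Adjusted over the 3 pairs, these became 0.0857, 0.0857 and 0.229, and the smallest p such a test allows is 0.0286.

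Other genes of the pathway were read from 8 lists. Of 41 genes tested 10 fell and 1 rose, and 30 did not pass. Over all tested genes 18.6% were lower and 13.4% higher, and 28% were lower in the range of levels of the subunit genes, so the share that fell is near the background. Among 5 chaperones that build the core, Psmg2, Psmg3 and Psmg4 fell. Psmg2 had 72.6 ± 15.8 RPM in PBS against 37.7 ± 11.3 RPM in DT, Psmg3 65.8 ± 10.5 RPM against 41.3 ± 3.81 RPM, and Psmg4 15.6 ± 2.67 RPM against 9.12 ± 1.34 RPM (SD, n = 4 and 3). Their adjusted p were 0.0175, 0.0173 and 0.0410, and none of the 3 passed under median-ratio or TMM scaling. Psme4, a large activator that caps the core in place of the regulatory particle, was at 109, 71.5, 91.4 and 73.0 RPM in PBS and at 34.02, 47.1 and 40.7 RPM in DT. It fell by 1.06 on the log2 scale (adjusted p = 0.00300) and passed in all 20 other settings. The other 4 caps and inhibitors of its list did not pass, with Psmf1, an inhibitor, at 82.4 ± 27.5 and 48.7 ± 5.22 RPM (adjusted p = 0.0558).

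Of genes that encode ubiquitin, Rps27a, in which it is fused to a ribosomal protein, fell. It had a mean of 113 ± 29.5 RPM in PBS against 58.9 ± 2.42 RPM in DT (adjusted p = 0.00926), and it has the many processed copies usual for ribosomal protein genes, so its values are uncertain. Ubb, which encodes a chain of ubiquitin repeats, was at 2534 ± 347 and 3304 ± 221 RPM and did not pass (adjusted p = 0.105).

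Genes that load or deliver substrates fell in 2 of 6 cases. As background to the counts given here, 18.6% of all tested genes were lower and 13.4% higher. Ubqln1, a shuttle that carries tagged proteins to the proteasome, was at 60.1, 70.1, 62.7 and 63.0 RPM in PBS and at 35.97, 35.9 and 33.95 RPM in DT (-0.84 ± 0.14, adjusted p = 0.00182), and it passed in all 20 other settings. Uba6, a ubiquitin-activating enzyme, fell by 0.63 on the log2 scale (adjusted p = 0.0397). Uba1, the main activating enzyme, had -0.13. Of 6 proteins bound to the proteasome, Ube3c, a ligase, and Adrm1, a ubiquitin receptor, fell (adjusted p = 0.0348 and 0.0431). Of 8 genes for the unfolding enzyme Vcp and its cofactors, Vcp fell from 143 ± 21.0 to 105 ± 6.69 RPM (adjusted p = 0.0489). Nfe2l1, which switches on proteasome genes when the protease is short, was at 13.5, 20.7, 25.1 and 20.51 RPM in PBS and at 32.4, 28.6 and 33.6 RPM in DT. It rose (0.66 ± 0.23, adjusted p = 0.0483), but passed in only 9 of 20 other settings, and the other 5 genes of its list did not pass. Of Uba6, Ube3c, Adrm1 and Vcp, 0 passed under median-ratio or TMM scaling.

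**Figure D5:**
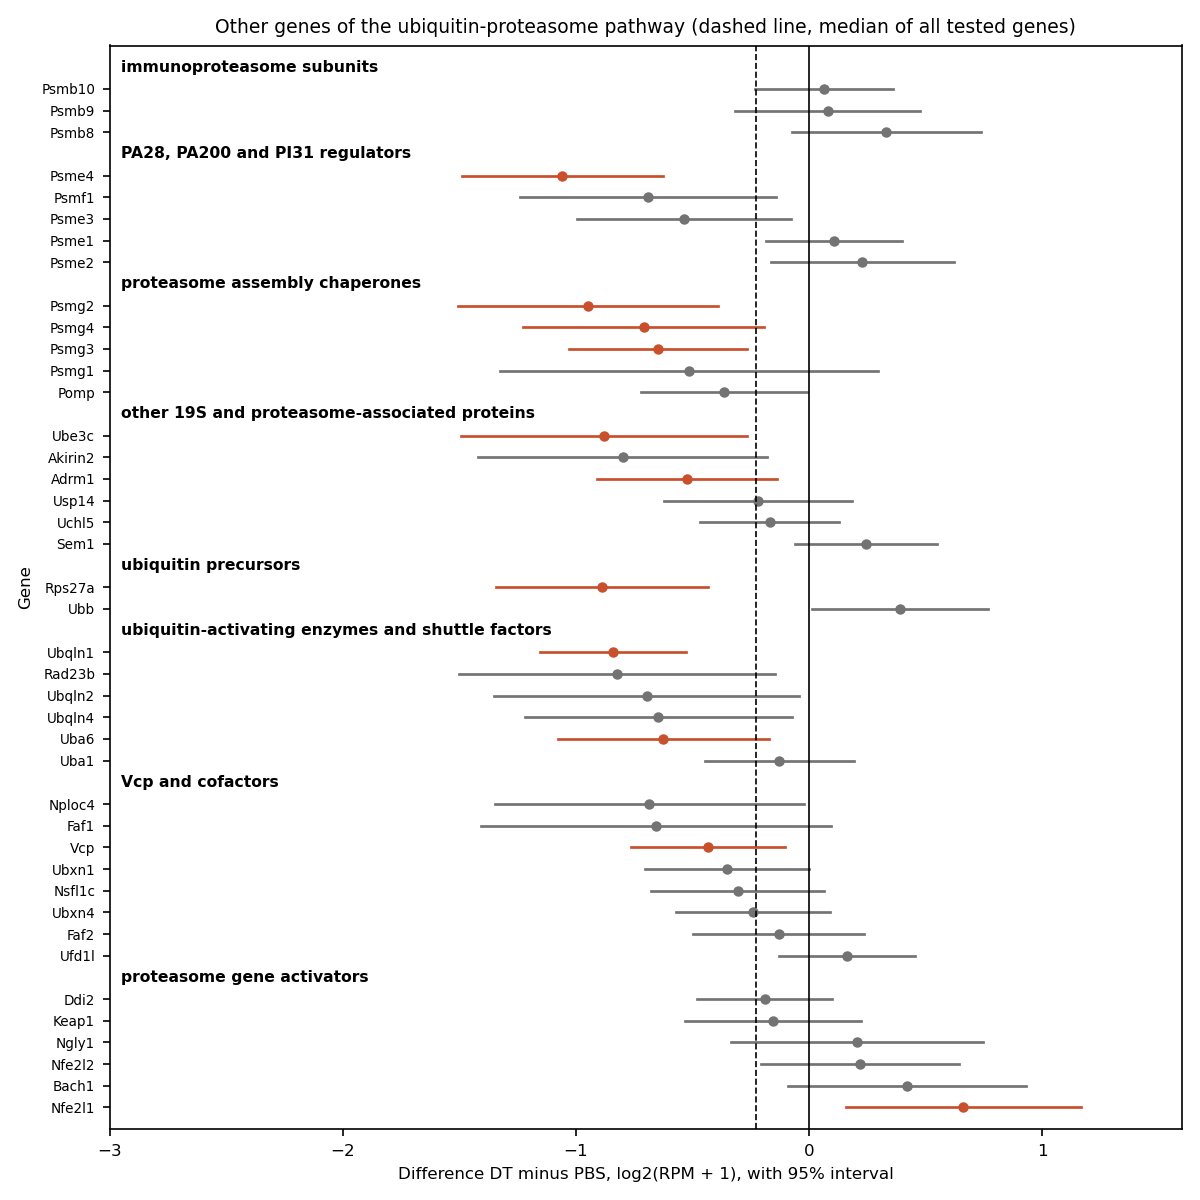
Difference between groups for 41 other pathway genes by list, in log2(RPM + 1), DT minus PBS, with 95% intervals; red marks genes past the threshold and the dashed line the median of all tested genes at -0.23. Psme4 lies lowest at -1.06, and Nfe2l1 is the 1 red gene above 0.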

How the data were processed

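The authors deposited 1 table whose name states FPKM, but whose values behave as RPM: in each library the most frequent low value, taken as 1 read, is shared by 1029 to 1206 genes whose transcript lengths (5th to 95th percentile) ran from 82.3 to 4659 bases at the extremes. Per the submitters' processing notes, the tools were STAR 2.5.3a and Partek and the build mm10; the sources used here do not give the annotation, counting or strand use. Libraries were made from 1 ng of RNA with 14 cycles of amplification, per the labels' protocols.

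Tests covered 14100 genes whose mean over the 7 libraries reached 1 RPM, on log2(RPM + 1) with limma 3.58.1 in R 4.3.3 with an intensity trend, two-sided, with Benjamini-Hochberg adjustment over all tested genes at 0.05. This scale understates changes of low genes. The method was tested on simulated data. Alternatives covered pseudocounts, filters, scaling, variance settings, voom, a replicate block and leaving out libraries. Low values were whole multiples of that step, within 0.02 of a step, in 60.5% to 62.6% of cases (values of up to 20 steps), so reads were not recovered. Members, lists and tests were chosen with earlier results of these data known. Genes described library by library are, in each of the Psma, Psmb, Psmc and Psmd genes, the 2 with the smallest p, the largest and smallest difference and the highest level per kilobase, plus Psmb5, Psmb6 and Psmb7. Of each pathway list, up to 4 called genes (or the 2 with the smallest p where 0 passed) and the 3 immune subunits were named; 3 pathway genes are not reported here and are left out of the lists' counts; of each cell type list the sum is given, with its most abundant genes. Psmb11, Psmd3, Psmd14, Psmf1, Ubb, Uba1, Pcna, Cdh5, Flt1, Jchain, Mzb1, the printed promoters and the catalytic pairs were chosen after their values were seen. Exons of 9 members overlap another gene; gene positions are from GENCODE vM21 (mm10).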

Additional observations from a re-analysis of the deposited data

Results flagged for a closer look

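In 38 genes (the 35 tested subunit genes and 3 immune counterparts), the 4 PBS libraries were searched for one that stood apart from the other 3 on the log2(RPM + 1) scale, by Dixon's gap test at the 95% level; the 3 DT libraries are too few for it. This flagged 2 genes, and chance alone flags about 1 in 20. Psma1 was at 266 RPM in PBS 2 and at 226 to 232 RPM in the other PBS libraries. Psmb10 was at 109.6 RPM in PBS 1 and at 95.5 to 96.3 RPM in the others.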

How the results depend on the processing

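The count of 5 lower subunit genes depended on the processing. It was 0 under TMM and median-ratio scaling (8.28% and 8.88% of all tested genes lower), 9 with equal column sums (6 core, 3 regulatory; 22.1% of all), 3 without a filter (all core; 5.75% of all), 12 with sample weights (7 core, 5 regulatory; 27.1% of all) and 6 with a minimum mean of 5 RPM (5 core, 1 regulatory; 23.7% of all). Leaving out 1 library gave 0 (without DT 3; 8.61% of all) to 15 (without PBS 1; 25.7% of all), 0 to 8 for core and 0 to 7 for regulatory genes; it was 2 without DT 1 or DT 2. Without both replicates numbered 1, tried after seeing the data, 11 were lower (7 core, 4 regulatory; 19.3% of all). The count of higher subunit genes was 1 (Psmd13) under TMM, median-ratio and quantile scaling and with sample weights. Lower genes among all tested numbered 2622, and 1168 with TMM, 1252 with median-ratio scaling, 1689 without a filter and 1208 to 3628 when leaving out 1 library; rises made up 41.9% of calls, 67.7% with TMM and 65.7% with median-ratio scaling. The same 5 subunit genes were called with either other pseudocount, quantile scaling and voom. The labels do not say whether replicate numbers pair the samples. Correlations of same-numbered deviations were 0.0419, 0.0485 and 0.0103, and those of differently numbered ones ran from -0.0482 to 0.0484. So few libraries cannot settle the pairing. With a replicate block 1 subunit gene (core, Psma5) and 1574 genes in all were lower. The core median minus the regulatory median was -0.16 and kept its sign in all 20 settings. It was -0.27 with the replicate block and -0.27 to -0.12 leaving out 1 library. PBS 4 has no partner in the block, so the block's medians equal those without PBS 4 and are no separate check. Signs turned for genes that did not pass: with TMM Psma4 (0.13), Psma7 (0.12), Psmb6 (0.010), Psmc3 (0.18), Psmc4 (0.15), Psmc5 (0.016) and Psmc6 (0.046); with median-ratio scaling Psma4 (0.11), Psma7 (0.10), Psmc3 (0.16), Psmc4 (0.13) and Psmc6 (0.026); Psmb10 without DT 2 (-0.0064) and Psmb9 without PBS 3 (-0.021; -0.021 to 0.226 over all such fits). The causes were not tested. The 3 to 4 libraries per group limit precision.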
